A study of Mus musculus with 24 samples.

Results

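Genes of bile acid synthesis, its control and bile acid transport were followed in liver and hypothalamus of leptin-deficient ob/ob mice. The members were Cyp7a1, Cyp7b1, Cyp8b1, Cyp27a1, Nr0b2, Nr1h4, Fgfr4, Slc10a1, Slco1b2 and Abcb11, taken with every probe set annotated to that symbol alone. The 10 genes, of 18194 genes with a probe set of a single symbol, carried 23 of the 34958 such probe sets. The animals were ob/ob males, sampled at 9 weeks of age after 4 weeks of oral treatment. Regular γ-oryzanol, a rice bran mixture of ferulic acid esters, was compared with its methylcellulose vehicle (Regular-Orz and Regular-Veh). γ-Oryzanol encapsulated in PLGA nanoparticles, particles of a biodegradable polymer, was compared with water (the Nano-Orz treatment, here the groups Nano-Orz and Nano-Veh). The study gave regular γ-oryzanol at a far higher dose than the encapsulated form. Each of the 8 groups of tissue, preparation and treatment had 3 arrays labelled as biological replicates, on 24 Affymetrix Mouse Genome arrays. The methods describe the 3 mice of a group as representative animals picked from a larger group, so the arrays are not a random sample of it. Whether a liver and a hypothalamus array came from the same mouse is not given in the sources used here, and all animals lacked leptin.

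Bile acids are made from cholesterol in hepatocytes. The classic pathway starts with CYP7A1, and CYP8B1 then sets the share of cholic acid. The alternative pathway starts with the mitochondrial enzyme CYP27A1 and continues through the oxysterol hydroxylase CYP7B1, which is also known from brain. The bile acid receptor FXR, encoded by Nr1h4, induces Nr0b2, whose product SHP represses Cyp7a1 and Cyp8b1. A gut hormone, FGF15, acts on the same enzymes through the hepatocyte receptor FGFR4. SLC10A1 (NTCP) and SLCO1B2 take bile acids up from portal blood, and ABCB11 (the bile salt export pump) secretes them into bile.

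The values were log2 signals from the distribution free weighted method (DFW), which draws arrays together. Between 99.0% and 99.7% of the 45101 probe sets varied by less than 0.001 over the 6 arrays of a comparison. A difference in log2 DFW units therefore ranks a probe set within a comparison and is no fold change. Calls were made by the rank product method at a pfp (the expected proportion of false positives among the probe sets called) below 0.05. In these bulk tissues, fewer cells of a type and less RNA per cell cannot be told apart. Of the fixed marker genes under vehicle, 6 of 7 hepatocyte genes measured were over 1 log2 DFW unit higher in liver than in hypothalamus. In turn, 4 of 4 neuron and 6 of 6 hypothalamus genes were more than 1 unit higher in hypothalamus. Not every list parted so: of 5 measured cholangiocyte genes, 0 were that much higher in liver and 1 was in hypothalamus. Of 5 choroid plexus genes, 1 was that much higher in liver and 2 were in hypothalamus.

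Under vehicle, most member probe sets gave more signal in liver than in hypothalamus. The level in liver, as the mean of 6 vehicle arrays, was above that in hypothalamus for 19 of 23 member probe sets, against 15.7% of all probe sets. Within each arm this held for 18 of 23, against 17.5% of all probe sets in either arm. The liver minus hypothalamus difference exceeded 1 log2 DFW unit for 13 of the 23, against 4.47% of all probe sets, and its median was 1.59 for the members and -0.45 for all probe sets. No test was made, since the tissues appear to have been quantified apart.

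The uptake carriers stood furthest apart. Slco1b2 1449394_at had a level of 12.26 ± 0.07 in liver and 6.10 ± 0.04 in hypothalamus (SD, n = 6 vehicle arrays). Slc10a1 1424898_at had a level of 12.71 ± 0.03 in liver and 6.64 ± 0.12 in hypothalamus. Both carriers work at the hepatocyte membrane facing blood. The exporter gene Abcb11 differed by 4.87 units between the tissues, Cyp8b1 by 4.49, Cyp27a1 1417590_at by 4.05, Nr1h4 by 3.19, Cyp7a1 1438743_at by 2.25, Nr0b2 by 2.04 and Fgfr4 1418596_at by 1.59.

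Cyp7b1 was the exception among the members. Its 3 probe sets were lower in liver than in hypothalamus by between 0.21 and 0.29 units as deposited, and after quantile normalization of all 24 arrays they were higher in liver by between 0.07 and 0.67 units. Probe set 1421074_at had a level of 7.83 ± 0.12 in liver and 8.09 ± 0.24 in hypothalamus (SD, n = 6 vehicle arrays). The direction for Cyp7b1 thus depended on the scaling, and that of Fgfr4 1427845_at did too, at -0.19 as deposited and 0.16 after quantile normalization. With that scaling all 23 member probe sets were higher in liver, but the matching share of all probe sets is not given here, so this count has no background. For another 2 probe sets the direction differed between the arms. The liver minus hypothalamus difference of Slco1b2 1427825_at was 0.48 between the Regular-Veh groups and -0.32 between the Nano-Veh groups, and that of Fgfr4 1427846_x_at was -0.0076 and 0.62.

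**Figure D1:**
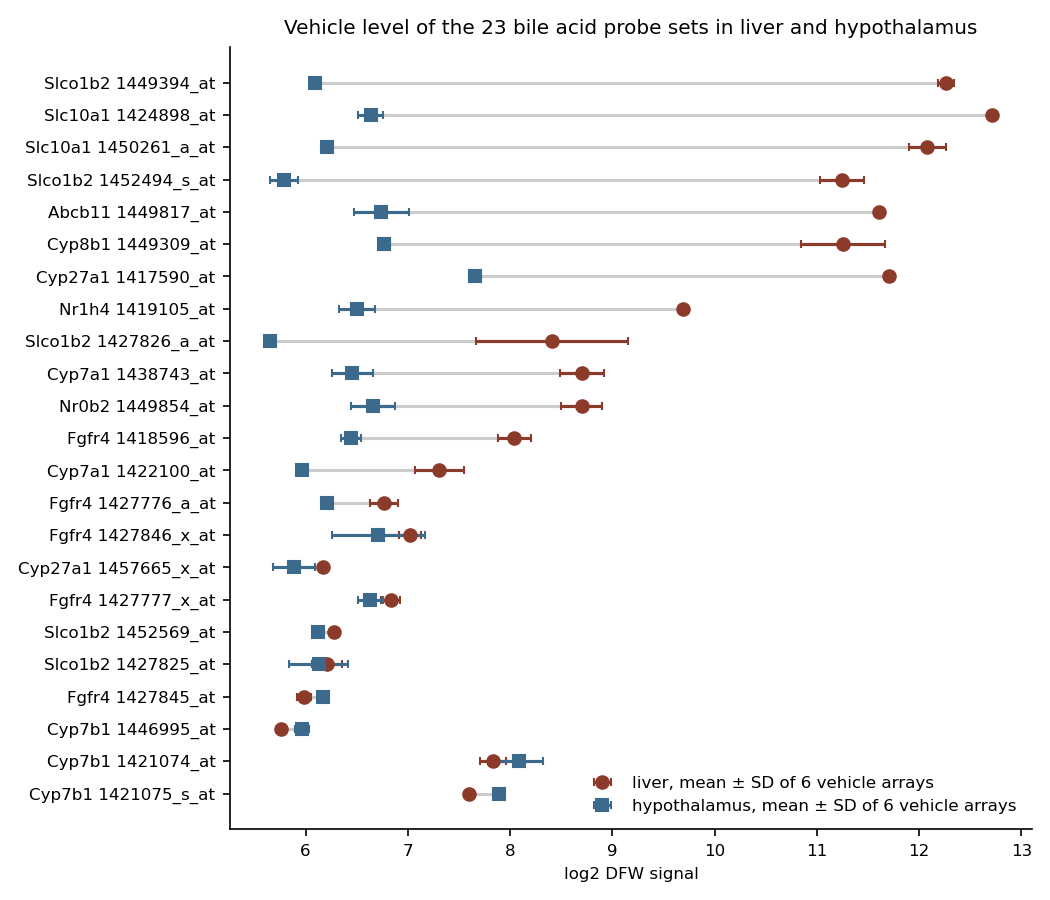
Level of each of the 23 member probe sets in liver (circles) and hypothalamus (squares) on the log2 DFW scale, as mean ± SD of the 6 vehicle arrays of a tissue, in order of the difference between tissues. The SD mostly holds the offset between the Regular and Nano arms, and the 3 Cyp7b1 probe sets and Fgfr4 1427845_at lie lower in liver than in hypothalamus as deposited.

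Probe sets of 1 gene did not behave alike. Fgfr4 had 5 probe sets, of which 1418596_at differed by 1.59 units between the tissues and the other 4 by between -0.19 and 0.55. Slco1b2 had 5 as well, with 3 differing by 2.76 units or more and 1427825_at and 1452569_at by 0.08 and 0.15. Names ending in _s_at or _x_at mark probes that can match other transcripts, so 1452494_s_at, 1421075_s_at, 1427777_x_at, 1427846_x_at and 1457665_x_at may hold signal of other genes. Levels also shifted between the arms: Nano-Veh minus Regular-Veh in liver ran from -1.36 units for Slco1b2 1427826_a_at to 0.75 for Cyp8b1, with a median of -0.13 for the members and -0.09 for all probe sets. Treatment was therefore compared with vehicle only within an arm, while the tissue levels above are means over both arms.

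In liver, regular γ-oryzanol was compared with methylcellulose to ask which bile acid genes it moved. Cyp7a1 was called higher through both of its probe sets, Slco1b2 was called higher through 1 of 5, and Nr0b2 was called lower. These were 3 of 23 member probe sets called higher, against 0.182% of all probe sets, and 1 of 23 called lower, against 0.215%. The members were chosen with earlier results of these data known, so these counts are no result about the members. Limma called none of the 45101 probe sets at an adjusted p below 0.05, and 4.58% of them, with 2 of 23 members, had an unadjusted p below that value. The differences lay between -0.000507 and 0.00239 log2 DFW units, with 14 of 23 positive, and their median of 1.22e-06 stood beside one of 5.90e-08 over all probe sets.

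Cyp7a1, the rate-limiting enzyme gene of the classic pathway, had the widest spread of the members in the Regular arm. Probe set 1438743_at read 8.51665, 8.50750 and 8.48988 in the Regular-Veh arrays 1 to 3. In the Regular-Orz arrays 1 to 3 it read 8.52478, 8.49153 and 8.50490. The groups overlapped almost fully, with array 1 highest in each group, and array 3 lowest among the vehicle and array 2 lowest among the treated arrays. The difference was 0.00239 ± 0.0125 log2 DFW units (standard error, n = 3 per group), called higher at a pfp of 0.033, while the pfp for lower was 0.104. Limma gave a 95% interval of -0.0274 to 0.0321 and an adjusted p of 1.

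The call of 1438743_at turned on single arrays. Without Regular-Orz array 1 the difference was -0.00646 and the probe set was called lower, at a pfp of 0.0024. Without Regular-Veh array 3 it was -0.00501, again called lower, at a pfp of 0.037. It was called higher in 2 of the 6 fits that left out an array, without Regular-Veh array 1 or 2. Its spread between arrays was wider than that of all but 0.0244% of the probe sets.

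The second Cyp7a1 probe set, 1422100_at, read 7.09197, 7.09199 and 7.09056 in Regular-Veh and 7.09483, 7.08978 and 7.09357 in Regular-Orz. Regular-Orz arrays 1 and 3 lay above every vehicle array and array 2 lay below every one. Its difference of 0.00122 ± 0.00159 units (standard error, n = 3 per group) was called higher at a pfp of 0.027, with an adjusted p of 1 by limma. The difference kept its sign in 6 of 6 fits without an array, and the call was lost without Regular-Orz array 1 (0.000166, pfp 0.492) or array 3 (0.000797, pfp 0.572). Over the 6 Regular arrays, the deviations of the 2 Cyp7a1 probe sets from their group means had a Pearson r of 0.86.

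**Figure D2:**
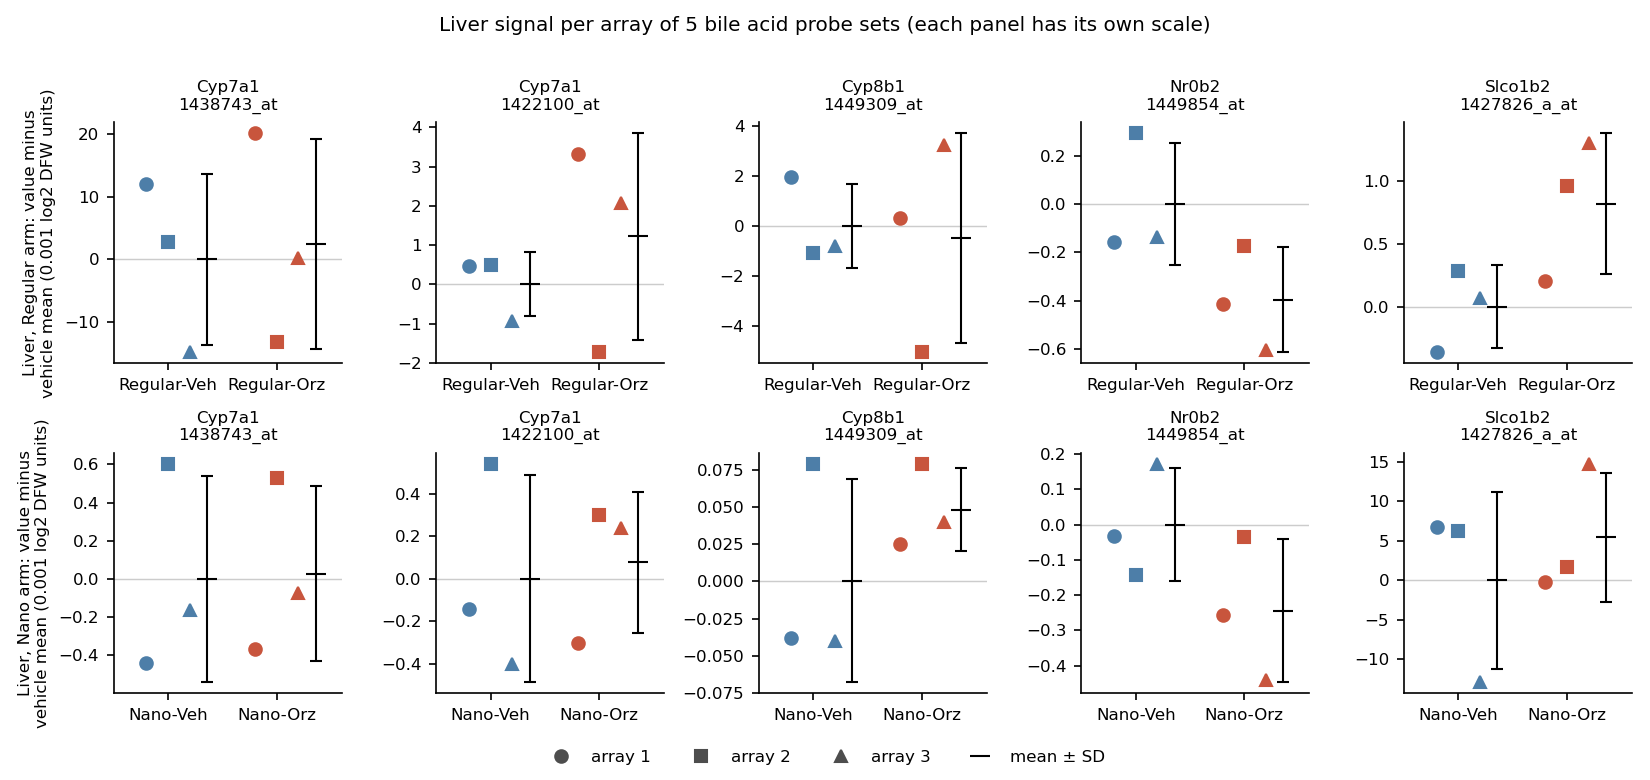
Liver values of 5 member probe sets in each array, as the distance from the vehicle mean of the arm in thousandths of a log2 DFW unit, for Regular-Veh and Regular-Orz (top) and Nano-Veh and Nano-Orz (bottom). Points are single arrays marked by replicate number, bars are the mean ± SD of 3 arrays, and each panel has its own scale; the groups are apart in the Regular arm for Nr0b2 alone.

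The other synthesis genes were not called. Cyp8b1 1449309_at, the sterol hydroxylase gene that sets cholic acid, read 10.8843, 10.8812 and 10.8815 in Regular-Veh and 10.8827, 10.8773 and 10.8856 in Regular-Orz. The treated arrays held both the lowest and the highest value, and the difference was -0.000507 ± 0.00262 units (pfp 0.204 for lower and 0.108 for higher). Without Regular-Orz array 3 it was called lower, at -0.00238 (pfp 0.011), and without Regular-Veh array 1 it was called higher, at 0.000459 (pfp 0.032). All 3 Cyp7b1 probe sets had differences below 0, down to -5.24e-05, and both Cyp27a1 probe sets had differences above 0, up to 5.24e-06, none of them called. Regular-Orz array 2 was the lowest of the 6 arrays for 5 of the 10 genes by their brightest probe set, namely Cyp7b1, Cyp8b1, Nr1h4, Fgfr4 and Slc10a1. Over probe sets it was the lowest for 8 of 23 members and for 15.9% of all.

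Among the regulators, Nr0b2 was called. Nr0b2 1449854_at read 8.88561, 8.88606 and 8.88563 in Regular-Veh and 8.88536, 8.88560 and 8.88517 in Regular-Orz. Every treated array lay below every vehicle array, with Regular-Orz array 2 just under Regular-Veh array 1, and 4.23% of all probe sets had treated arrays lower with no overlap. The difference was -0.000397 ± 0.000193 units (standard error, n = 3 per group), called lower at a pfp of 0.0070. Limma gave a 95% interval of -0.000859 to 6.48e-05 and an adjusted p of 1. The difference stayed between -0.000509 and -0.000250 without any 1 array, but the call was lost without Regular-Veh array 1, 2 or 3 (pfp 0.067, 0.202 and 0.062). It was also lost after quantile normalization, at -0.000289 (pfp 0.272), and with what are here called spread-scaled ranks (pfp 0.168). These divide each difference, before ranking, by its probe set's spread plus the median spread over all probe sets. Of the receptors, Nr1h4 differed by -1.15e-05 units, and the 5 Fgfr4 probe sets by between -8.90e-07 and 1.37e-05, with no call.

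Of the transporters, Slco1b2 was called through 1427826_a_at. This probe set read 9.09212, 9.09277 and 9.09255 in Regular-Veh and 9.09268, 9.09344 and 9.09378 in Regular-Orz. Regular-Orz arrays 2 and 3 were above every vehicle array, and array 1 fell under Regular-Veh array 2. The difference was 0.000820 ± 0.000374 units (standard error, n = 3 per group), called higher at a pfp of 0.0037, and limma gave an interval of -7.51e-05 to 0.00171 and an adjusted p of 1. The difference ran from 0.000581 to 0.00113 without any 1 array, and the call was lost without Regular-Orz array 2 (pfp 0.114) or array 3 (pfp 0.178).

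The other 4 Slco1b2 probe sets also had differences above 0, though none was called. Probe set 1452494_s_at read 11.44714, 11.44721 and 11.44719 in Regular-Veh and 11.44724, 11.44727 and 11.44728 in Regular-Orz, a difference of 8.39e-05 ± 2.48e-05 units (pfp 0.053). Probe set 1449394_at, the brightest of the gene in liver, differed by 2.73e-06 ± 1.05e-06 units. Probe set 1452569_at differed by 3.35e-06 ± 8.99e-07 units. In these 3 probe sets the treated arrays lay above the vehicle arrays with no overlap, which held for 5.02% of all probe sets. They had limma's smallest unadjusted p-values among the 23 member probe sets, 0.0154 for 1452494_s_at, 0.0194 for 1452569_at and 0.0561 for 1449394_at, each with an adjusted p of 1. Slc10a1 differed by -7.67e-08 and 8.33e-08 units through its 2 probe sets, and Abcb11 by 2.37e-06, with no call.

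**Figure D3:**
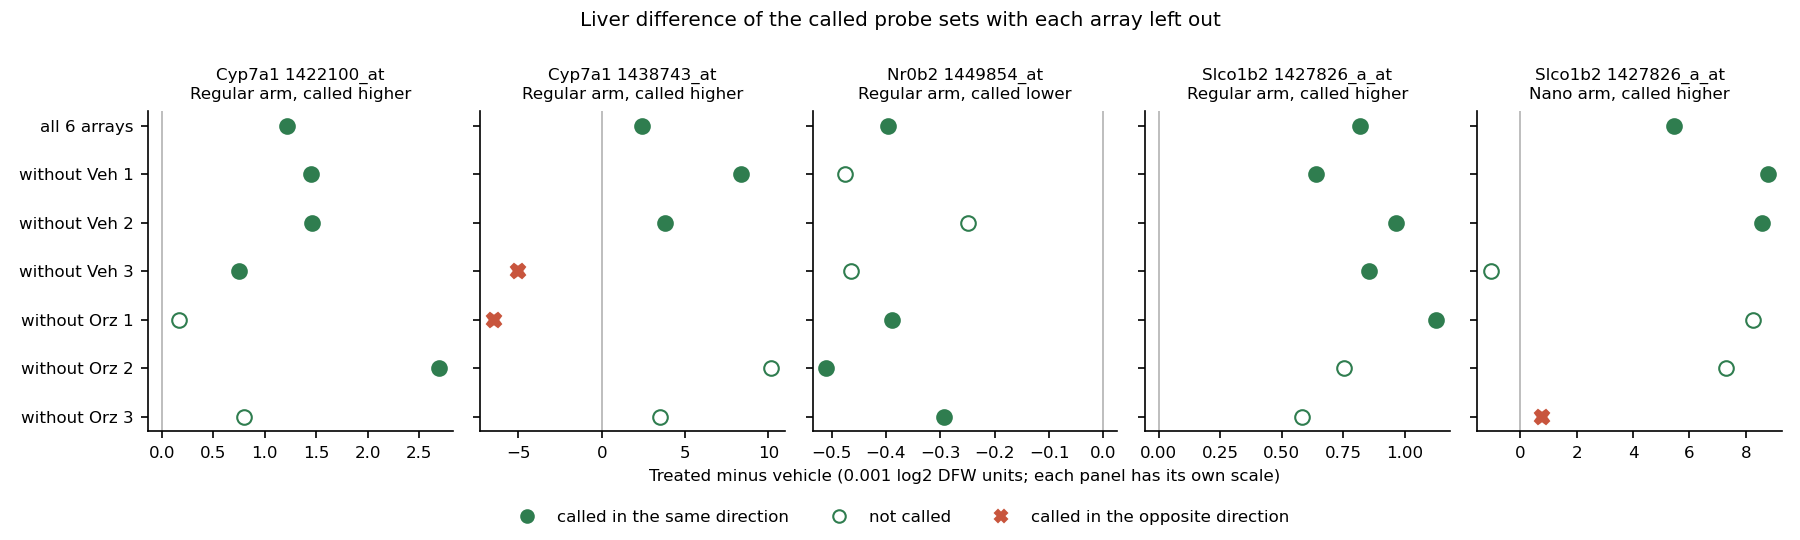
Liver difference, treated minus vehicle, in thousandths of a log2 DFW unit, for the 5 called results of 4 probe sets with all 6 arrays and with each array left out. Filled circles were called in the original direction, open circles were not called and crosses were called in the opposite direction; Cyp7a1 1438743_at was called lower without Veh 3 or Orz 1.

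Promoter sequence is shown for the called genes Nr0b2 and Slco1b2, from the RefSeq promoter table of GRCm38.p6, which held 8 of the 10 members, Slc10a1 with 2 entries. The windows end at the base before the annotated gene, both genes lie on the plus strand, and the letters run 5′ to 3′. Capitals in the Nr0b2 window (chr4:133553126-133553375) mark TCAAGG, the core of the site bound by NR5A2, a nuclear receptor that acts on bile acid genes. They start 68 and 35 bases before the gene.
Nr0b2: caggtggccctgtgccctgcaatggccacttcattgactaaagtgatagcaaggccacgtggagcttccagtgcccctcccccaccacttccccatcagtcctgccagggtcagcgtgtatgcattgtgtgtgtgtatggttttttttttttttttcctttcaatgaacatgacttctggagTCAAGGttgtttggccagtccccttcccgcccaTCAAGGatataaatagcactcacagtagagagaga
Capitals in the Slco1b2 window (chr6:141629268-141629451) mark TGACCT, the reverse complement of AGGTCA, a hexamer bound by many nuclear receptors, which starts 15 bases before the gene.
Slco1b2: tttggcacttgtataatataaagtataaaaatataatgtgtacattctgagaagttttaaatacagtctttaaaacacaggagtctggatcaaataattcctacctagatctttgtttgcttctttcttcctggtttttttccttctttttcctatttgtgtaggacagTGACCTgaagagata
Both motifs were searched on both strands in windows of 250 bases, and they can overlap, since the former ends with letters that start the latter. TCAAGG was found in 12.5% of all 32851 promoters, and of the 9 member promoters in that of Nr0b2. AGGTCA was found in 14% of all promoters and in 4 of the 9 member promoters, those of Abcb11, Slco1b2, Nr1h4 and Slc10a1. These matches describe the letters and not binding.

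In liver, the Nano-Orz treatment was compared with water. No array group is labelled as given particles without γ-oryzanol, so the parts of particle and γ-oryzanol cannot be told apart. Slco1b2 was called higher through 1427826_a_at, the probe set that was called with regular γ-oryzanol, and no other member probe set was called. This was 1 of 23 called higher, against 0.297% of all probe sets, and 0 of 23 called lower, against 0.18%. Given how the members were chosen, these counts too are no result about them. By limma 0 of 45101 probe sets had an adjusted p below 0.05, and 4.34% of them and 0 of the 23 members had an unadjusted p below it. The differences of the 23 ran from -0.000244 to 0.00544 log2 DFW units, with 12 above 0, and their median of 1.26e-06 stood beside one of -4.77e-08 over all probe sets.

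Slco1b2 1427826_a_at read 7.73842, 7.73799 and 7.71877 in Nano-Veh and 7.73153, 7.73346 and 7.74653 in Nano-Orz. Nano-Veh array 3 was the lowest and Nano-Orz array 3 the highest, while Nano-Orz arrays 1 and 2 lay under Nano-Veh arrays 1 and 2. The difference was 0.00544 ± 0.00801 units (standard error, n = 3 per group), called higher at a pfp of 0.030, with limma's interval from -0.0139 to 0.0248 and an adjusted p of 1. Without Nano-Veh array 3 it was -0.00103 and not called (pfp 0.480 for higher and 0.239 for lower). Without Nano-Orz array 3 the mean difference was 0.000767, yet the probe set was called lower at a pfp of 0.013. It was called higher in 2 of the 6 fits without an array. With the replicate number as a block it was called lower (pfp 0.011), and with spread-scaled ranks it was not called (pfp 1.04 for either direction). Of the other 4 Slco1b2 probe sets, 3 had differences above 0 and 1427825_at had one of -1.44e-05.

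Cyp7a1 was not called in the Nano arm. Probe set 1438743_at read 8.90172, 8.90277 and 8.90200 in Nano-Veh and 8.90180, 8.90269 and 8.90209 in Nano-Orz. Array 2 was the highest and array 1 the lowest in each group, and the groups overlapped. Its difference was 2.85e-05 ± 0.000409 units and that of 1422100_at was 7.86e-05 ± 0.000341, with the smaller pfp at 0.460 and 0.415. The SD within groups of 1438743_at was 0.000501 in the Nano arm, against 0.0153 with the other preparation, so the 2 arms gave this gene a different precision on the DFW scale.

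Nr0b2 read 8.51204, 8.51193 and 8.51224 in Nano-Veh and 8.51182, 8.51203 and 8.51163 in Nano-Orz. The treated arrays 1 and 3 lay below every vehicle array, and array 2 lay within the vehicle range. The difference of -0.000244 ± 0.000149 units was not called (pfp 0.065), although without Nano-Orz array 2 it was called lower at -0.000348 (pfp 0.0074). Slc10a1, the sodium-dependent uptake carrier gene, had differences of 7.64e-06 (1424898_at) and 0.000145 (1450261_a_at), and the treated arrays of 1424898_at lay above the vehicle arrays with no overlap, as in 4.34% of all probe sets. All 5 Fgfr4 probe sets had differences below 0, from -1.56e-05 to -4.79e-07, with no overlap for 1427846_x_at, as in 4.67% of all probe sets. Cyp8b1 differed by 4.77e-05, Nr1h4 by 7.62e-06 and Abcb11 by -1.69e-06, none of them called.

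The effect of Nano-Orz was then set against that of regular γ-oryzanol, as the difference between the 2 differences. By limma over the 12 liver arrays, 0 of 23 member probe sets and 0 of 45101 probe sets passed an adjusted p of 0.05, and 1 of 23, Fgfr4 1427846_x_at, had an unadjusted p below it, against 5.5% of all. For Slco1b2 1427826_a_at the Nano-Orz effect minus the regular effect was 0.00462 units, with a 95% interval of -0.0127 to 0.0219 and an adjusted p of 0.994. The interval was -0.000373 to 0.000678 for Nr0b2 and -0.0292 to 0.0245 for Cyp7a1 1438743_at. These intervals rest on a spread shared by both arms. Within groups, the SD of Cyp7a1 1438743_at was 0.0153 in the Regular and 0.000501 in the Nano arm. That of Slco1b2 1427826_a_at was 0.000459 and 0.00981, and that of Nr0b2 was 0.000237 and 0.000183. A difference between the preparations was thus not shown for any member, and the intervals do not show that they act alike. The doses, the vehicles and the quantification differed with the preparation, so their parts cannot be told apart from it.

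**Figure D4:**
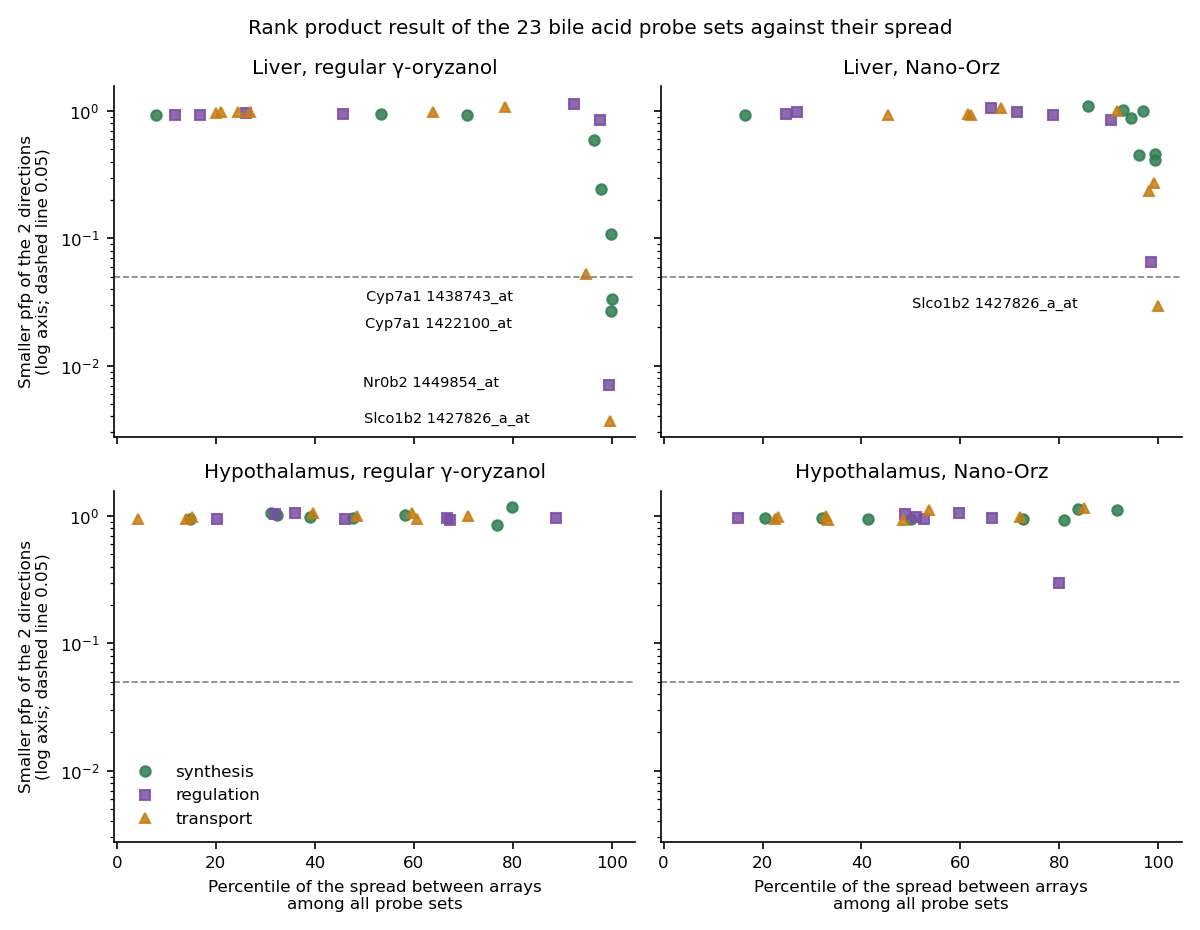
The smaller of the 2 pfp values of each member probe set (log axis, dashed line at 0.05) against the percentile of its spread between arrays among all 45101 probe sets, in the 4 comparisons. Symbols give the role of the gene, and the labelled probe sets, those called, all lie above the 99th percentile of the spread.

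The calls lay among the probe sets that varied most. The 5 called results had spreads above those of at least 99.36% of all probe sets. Over all probe sets, 72.1% of the calls in the Regular liver comparison and 68.4% of those in the Nano liver comparison came from the 1% with the widest spread, which held 5 and 4 of the 23 member probe sets. In hypothalamus that 1% held 0 of the 23 in either arm. With spread-scaled ranks, 1 of 23 was called in the Regular arm, Slco1b2 1452494_s_at (pfp 0.0061), against 0.306% of all probe sets in either direction, and 0 of 23 in the Nano arm, against 0.574%. None of the 5 results called before this scaling was called with it.

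In hypothalamus, the contrast tissue, no member was called. With regular γ-oryzanol 0 of 23 were called higher, against 0.177% of all probe sets, and 0 of 23 lower, against 0.379%. With Nano-Orz 0 of 23 were called higher, against 0.242%, and 0 of 23 lower, against 0.723%. Limma gave an adjusted p below 0.05 for none of the 45101 probe sets in either arm, and an unadjusted p below it for 5.68% of all and 0 members with regular γ-oryzanol, and for 6.1% of all and 1 member with Nano-Orz. With regular γ-oryzanol the member differences ran from -8.62e-06 to 5.14e-06 log2 DFW units, with a smallest pfp of 0.847. With Nano-Orz they ran from -4.57e-06 to 1.37e-05, with a smallest pfp of 0.299.

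Single members showed as little. Cyp7a1 1438743_at and 1422100_at both had differences below 0 with regular γ-oryzanol and above 0 with Nano-Orz, of at most 1.22e-06 units in size. Fgfr4 1427846_x_at read 6.300739, 6.300745 and 6.300740 in Nano-Veh and 6.300747, 6.300762 and 6.300755 in Nano-Orz. Its treated arrays were all higher, as in 6.18% of all probe sets, and the difference was 1.37e-05 ± 4.56e-06 units, with an unadjusted p of 0.0244 and an adjusted p of 0.788 by limma. Slco1b2 1452494_s_at with regular γ-oryzanol and Slc10a1 1424898_at with Nano-Orz lay lower with no overlap, as in 5.04% and 4.95% of all probe sets. No member lay higher with no overlap with regular γ-oryzanol, as 5.87% of all probe sets did. The Nano-Orz effect minus the regular effect passed an adjusted p of 0.05 by limma for 0 of 23 members, against 0.00443% of all probe sets, and an unadjusted one for 2 of 23, both of Fgfr4, against 6.87%.

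The hypothalamus arrays held signal of markers of other tissues that varied between arrays. Choroid plexus markers were called lower with Nano-Orz through 7 of 9 probe sets, and their summed linear signal ran from 2488 to 209349 in Nano-Veh and from 1046 to 21745 in Nano-Orz. Transthyretin, Ttr 1455913_x_at, read 15.70, 15.55 and 8.72 in Nano-Veh and 6.69, 12.35 and 9.61 in Nano-Orz, and the groups overlapped. In the Regular arm, 2 of 10 hepatocyte marker probe sets, of Alb and Apoa2, were called lower in hypothalamus, with Alb 1425260_at at -0.0423 units. The part of these cells in the hypothalamus values was not tested. The summed signal of the 23 member probe sets spanned 2219.737 to 2219.7405 in Nano-Veh, and no member was called in any of the fits without 1 of these arrays.

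Some cell marker probe sets were called in liver. Over all probe sets, 0.397% were called in either direction with regular γ-oryzanol and 0.477% with Nano-Orz. Of 10 hepatocyte marker probe sets, 0 were called in the Regular arm, where their summed linear signal ran from 156919 to 156921 in Regular-Veh and Regular-Orz alike. In the Nano arm 1 of 10 was called, Ass1 lower, and the sums ran from 160735 to 160738 in Nano-Veh and from 160734 to 160736 in Nano-Orz. Of 10 stellate cell marker probe sets, 1 was called lower with regular γ-oryzanol (Lrat) and 1 higher with Nano-Orz (Col3a1). Of 11 astrocyte marker probe sets, 1 was called higher with regular γ-oryzanol and 0 with Nano-Orz. The part of these cells in the member calls was not tested.

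A wider list of 53 bile acid genes, the members included, placed these values in the pathway. Its 51 measured genes had 90 probe sets, of which 4 were called higher and 1 lower in liver with regular γ-oryzanol, against 0.182% and 0.215% of all probe sets. With Nano-Orz 1 was called higher and 1 lower, against 0.297% and 0.18%. Member probe sets made up 4 of the 5 calls with regular γ-oryzanol and 1 of the 2 with Nano-Orz. Members and list were chosen with earlier results of these data known, so this split is no result about the members. Among the 67 probe sets of the 41 measured genes that are no members, 1 was called higher with regular γ-oryzanol and 1 lower with Nano-Orz, and none in hypothalamus. The former was Nr5a2 1420410_at, of the nuclear receptor LRH-1 that activates Nr0b2 and Cyp8b1, at 0.000275 ± 0.000206 units (pfp 0.044). The latter was Abcc4 1443870_at, of an exporter on the blood side of the hepatocyte, at -0.000364 ± 0.000200 units (pfp 0.041). The pfp rose to as much as 0.445 for Nr5a2 and 0.591 for Abcc4 without 1 array, and limma gave an adjusted p of 1 for each. The median difference over the 67 was -2.41e-07 with regular γ-oryzanol and 1.51e-07 with Nano-Orz. Of 20 further synthesis probe sets, among them those of Cyp39a1, Akr1d1, Baat and Slc27a5, none was called in any comparison.

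Cyp7a1 is a gene with a daily rhythm, and the time of day of sampling is not given in the sources used here. Of 23 probe sets of 10 clock-output genes, 0 were called in liver with regular γ-oryzanol, against 0.397% of all probe sets in either direction. With Nano-Orz 2 were called, 1 higher and 1 lower, against 0.477% in either direction. Dbp 1438211_s_at, of a clock-driven factor known to act on Cyp7a1 in rat, read 9.73595, 9.73563 and 9.73609 in Nano-Veh and 9.73645, 9.73599 and 9.73672 in Nano-Orz, a difference of 0.000496 ± 0.000251 units called higher (pfp 0.020). In the Regular arm it read 9.25856, 9.25937 and 9.25942 in Regular-Veh and 9.25797, 9.25864 and 9.25971 in Regular-Orz, with no call. The other Dbp probe set, 1418174_at, was called in neither arm (pfp 0.112 for higher with Nano-Orz). Npas2 1421037_at was called lower with Nano-Orz, at -0.000128 ± 2.81e-05 units (pfp 0.046). Over the 12 liver arrays the deviations of Dbp 1438211_s_at and Cyp7a1 1438743_at from their group means had an r of -0.53. The part of sampling time in the member values was not tested.

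Members did not vary as a block from array to array. Over the 12 liver arrays, as deviations from the group means, Cyp7a1 1438743_at had an r of 0.66 with Nr1h4, 0.56 with Cyp8b1, -0.13 with Nr0b2 and -0.05 with Slco1b2 1449394_at. The r with Cyp8b1 was 0.56 over the 6 Regular arrays and 0.93 over the 6 Nano arrays, whereas that with Nr1h4 was 0.68 and 0.11. The probe sets closest to Cyp7a1 1438743_at among 34958 were those of D16Ertd472e (r = 0.994), Wt1os (0.993), Mc5r (0.992), Zfp668 (0.991) and Zdhhc16 (0.988). Within the 6 Nano arrays their r ran from -0.77 to 0.75, so the likeness rested on the 6 Regular arrays, where Cyp7a1 varied most. These points share arrays and groups of 3, and the values are given as a description.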

How the data were processed

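Total RNA of 24 samples was hybridised to Affymetrix Mouse Genome arrays. The authors quantified the scans with DFW and deposited log2 signals of 45101 probe sets, apparently per tissue and arm. DFW narrows the spread between arrays, and neither probe-level data nor detection calls were used here. Probe sets were named through GEO's platform annotation, in which 34958 carry 1 symbol, 932 several and 9211 none, and all 10 members matched RefSeq. Another 4 tables of the same signals have 24 columns whose animal codes no label ties to a sample, and these were not used.

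Arrays were grouped by the labels. Rank products, which the study's methods name, were computed over 9 treated and vehicle pairs with 100 permutations within arrays, over all probe sets (Python 3.11.15, numpy 2.4.6, pandas 2.3.3, scipy 1.17.1). Limma 3.58.1 in R 4.3.3, with Benjamini-Hochberg adjustment, was the alternative and tested the arms against each other. Standard errors use the pooled variance. Plots used matplotlib 3.10.9. The scripts were tested on simulated data. P-values of limma and the t-test measure the spread between these arrays, whose number limits the precision. The pfp comes from shuffling values among probe sets within each array, so it does not measure that spread.

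Named were all member probe sets, every wider-list gene with a called probe set and at most 3 clock-output genes. The 5 probe sets most like Cyp7a1 were named too, and some of the marker genes called. The members and lists were chosen with earlier results of these data known. Alternatives were quantile normalization, a filter on dim probe sets, spread-scaled ranks, limma, the methods' t-test, a replicate block and leaving out each array.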

Additional observations from a re-analysis of the deposited data

How the results depend on the processing

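In liver, 4 member probe sets were called with regular γ-oryzanol and 1 with Nano-Orz, against 3 and 1 after quantile normalization (0.22% and 0.231% of all probe sets) and 4 and 1 of the 18 that remained without the dimmer probe sets (0.466% and 0.51%). With spread-scaled ranks the counts were 1 and 0, and with limma 0 and 0, also with a replicate block. The methods' t-test gave 2 and 0 at an unadjusted p below 0.05 and 0 and 0 after adjustment, and 1 in hypothalamus with Nano-Orz before adjustment. Its share over all probe sets is not given here. Limma's unadjusted p was below 0.05 for 4.58%, 4.34% and 6.1% of all probe sets in these comparisons. Without 1 array the counts, in either direction, ran from 2 to 4 with regular γ-oryzanol and from 0 to 1 with Nano-Orz. The probe sets called and their directions changed with the array left out, and the shares of all probe sets in these fits are not given here. The difference of Cyp7a1 1438743_at with regular γ-oryzanol ran from -0.00646 (without Regular-Orz array 1) to 0.0102 without 1 array, and was -0.00501 without Regular-Veh array 3. That of Slco1b2 1427826_a_at with Nano-Orz ran from -0.00103 (without Nano-Veh array 3) to 0.00879. Cyp7b1 1421074_at turned from -0.26 to 0.67 for liver minus hypothalamus under quantile normalization. For Nr0b2 the call with regular γ-oryzanol was lost under quantile normalization (pfp 0.272). The causes were not tested. In hypothalamus, and between the arms, the count was 0 under every other alternative run. Quantile normalization called 0.239% and 0.361% of all probe sets in hypothalamus (regular γ-oryzanol and Nano-Orz), and spread-scaled ranks 0.647% and 0.825%. The filter left 3 member probe sets there and called 0.443% and 1.01% of all that remained. At such shares a count of 0 says little about the members.

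The labels do not say that a replicate number marks a shared litter, batch or day, and in no comparison did all 3 same-numbered pairs correlate above 0.1. The deviations of same-numbered arrays correlated between 0.02 and 0.22 in liver with regular γ-oryzanol, between -0.20 and 0.08 in liver with Nano-Orz, and between 0.09 and 0.21 and between 0.07 and 0.37 in hypothalamus. The treated array closest to a vehicle array had its number for 3 of 3 vehicle arrays in each hypothalamus comparison, and for 2 of 3 and 0 of 3 in liver with regular γ-oryzanol and Nano-Orz, a hint from the data and not the design. With the replicate number as a block, rank products over the 3 same-numbered pairs called 6 member probe sets in the Regular liver arm, 4 higher and 2 lower, against 0.333% and 0.304% of all probe sets, Cyp8b1 among the latter (pfp 0.011). In the Nano arm that block called 1, Slco1b2 1427826_a_at, as lower (pfp 0.011), against 0.211% of all probe sets, although its mean difference was positive. The block called 0 in hypothalamus, against 0.694% and 1.47% of all probe sets in either direction, and 0 between the arms. Array signals relative to background could not be judged from DFW values.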
